A study of Mus musculus with 20 samples.

Results

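The nuclear-encoded subunits of the mitochondrial respiratory chain and of the ATP synthase were followed in whole mouse pancreas around birth. The set holds every gene whose symbol in the deposited probe table starts with Ndufa, Ndufb, Ndufc, Ndufs, Ndufv, Sdh followed by a, b, c or d, Uqcr, Cox4i, Cox5, Cox6, Cox7, Cox8 or Atp5, together with Cycs. These names found 96 of the 30063 genes that had a probe set with a single symbol, and 94 of the 96 exceeded the median of their array 4 times or more and were tested among 17993 genes. The exceptions were Cox7b2 and Cox8b, both isoforms of cytochrome c oxidase subunits, with mean log2 signals of 3.88 and 3.90.

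All mice were C57BL/6J, of undetermined sex. The knockouts were Iir -/-, lacking the inceptor gene (symbol Elapor1, an insulin inhibitory receptor), and the controls were Iir +/+. At embryonic day 18.5 (E18.5) there were 4 wild-type and 5 knockout arrays, taken after the mother had been starved for 2 h. On the day of birth (P0) there were 5 wild-type and 6 knockout arrays, from pups starved for 5 h. Whether arrays came from separate animals is not labelled, so p-values reflect only sample-to-sample spread, which may be technical. Age and the length and kind of starvation cannot be told apart. The signal of a bulk tissue cannot tell fewer cells of a type from less RNA per cell. Differences are on the log2 scale of the deposited signal, ± SE, and "called" means an adjusted p under 0.05 from limma with Benjamini-Hochberg adjustment over all 17993 genes, two-sided.

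The respiratory chain sits in the inner mitochondrial membrane. Complex I takes electrons from NADH and complex II from succinate, ubiquinone carries them to complex III, and cytochrome c carries them on to complex IV, where oxygen is reduced. Complexes I, III and IV pump protons, and complex V, the ATP synthase, uses the gradient to make ATP. Most subunits are encoded in the nucleus and imported, and a small number are encoded by mitochondrial DNA. The exocrine pancreas spends ATP on making and secreting digestive enzymes, and beta cells use ATP made by the chain to couple glucose to insulin release.

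By kind, the set comprised 34 subunits of complex I, 4 of complex II, 8 of complex III, 19 of complex IV (17 of them tested) and 16 of complex V. It also held cytochrome c (Cycs), 9 assembly factors (7 for complex I and 2 for complex II) and 5 further names that the rule catches. These include pseudogenes of ATP synthase subunits and Cox7a2l, described as joining complexes into supercomplexes, a role not examined in these mice. Ndufa4 and Ndufa4l2 carry complex I names but are counted here with complex IV, where NDUFA4 is now placed. The median of the members' mean signals was 10.47, against 6.58 over all tested genes. Ndufb4 and Ndufa11 were measured only by probe sets that also name a further gene, and are not among the 96. For Atp5l, Atp5g2 and Cycs the brightest probe set lay on another chromosome than the gene.

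Elapor1 read between 11.07 and 12.06 on the 9 wild-type arrays and between 5.58 and 6.50 on the 11 knockout arrays. Its difference was -5.55 ± 0.19 at E18.5 (adjusted p = 4.13e-12) and -5.49 ± 0.18 at P0 (adjusted p = 8.1e-13). The 7 tested acinar markers gave array means of 15.69 to 16.30 at E18.5 and 14.69 to 15.46 at P0. Of these markers 3 were called lower at P0 in each genotype. Cpa1, Cel and Ctrb1 sat at the ceiling of the scale on every array, and Cela1 lay close to it. The means therefore damp any change in the others. Between E18.5 and P0 the group mean of Ptf1a went from 11.88 to 8.85 in wild types and 12.09 to 9.09 in knockouts. For Bhlha15 it went from 8.14 to 6.35 and 8.25 to 6.35, and for Rbpjl from 12.66 to 11.4 and 12.84 to 10.23. Markers of neighbouring tissue varied between arrays of the same group. The mean of 5 intestinal markers ran from 5.29 to 8.02 in E18.5 wild types, 5.19 to 9.28 in E18.5 knockouts, 4.88 to 5.26 in P0 wild types and 5.02 to 6.64 in P0 knockouts. The mean of 6 skeletal muscle markers lay between 5.46 and 6.84 on 18 arrays and reached 8.98 on E18.5 knockout array 1 and 9.32 on P0 knockout array 4. The 9 liver markers ran from 8.14 to 14.95 over all arrays, with none called. Their group means were 12.78 in E18.5 wild types, 11.97 in E18.5 knockouts, 11.09 in P0 wild types and 12.86 in P0 knockouts. Of the 4 mesenchymal markers 2 were called higher at P0 in knockouts (median difference 0.48) and none in wild types (0.21).

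Respiratory chain transcripts were lower at P0 than at E18.5. In knockouts 59 of the 94 members fell and none rose, with a median difference of -0.35, against 0.00 over all genes. In wild types 8 fell and none rose, with a median of -0.15 against 0.01. The wild-type count rests on few arrays: it was 1 without E18.5 array 1 or without array 2, 2 without P0 array 3, 3 without E18.5 array 3 or P0 array 5, 5 without E18.5 array 4 or P0 array 4, and 0 when the 9 wild-type arrays were fitted alone. Over all tested genes, 11.7% fell and 11.3% rose in knockouts, and 4.10% fell and 4.76% rose in wild types. The members are brighter than most genes. Of 3885 other genes of like signal (means of 8.17 to 13.75, the members' quartiles), 678 fell and 651 rose in knockouts. In wild types 222 of these fell and 354 rose. The difference lay below 0 for 90 members in knockouts and for 72 in wild types. All values of a member at P0 lay below all those at E18.5 for 39 members in knockouts, where 6.55% of all genes showed this, and for 7 members in wild types, where 5.36% did.

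The mean of the members on each array shows the same picture. It was 10.92, 11.02, 11.04 and 11.10 in the E18.5 wild types and 11.23, 11.29, 11.10, 11.18 and 11.12 in the E18.5 knockouts. At P0 it was 10.97, 10.92, 10.72, 10.95 and 10.73 in the wild types, and ran from 10.65 through a median of 10.80 to 10.91 in the knockouts. In knockouts the ages did not overlap. In wild types they did, since 3 P0 arrays reached the range of the lowest E18.5 array.

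**Figure D1:**
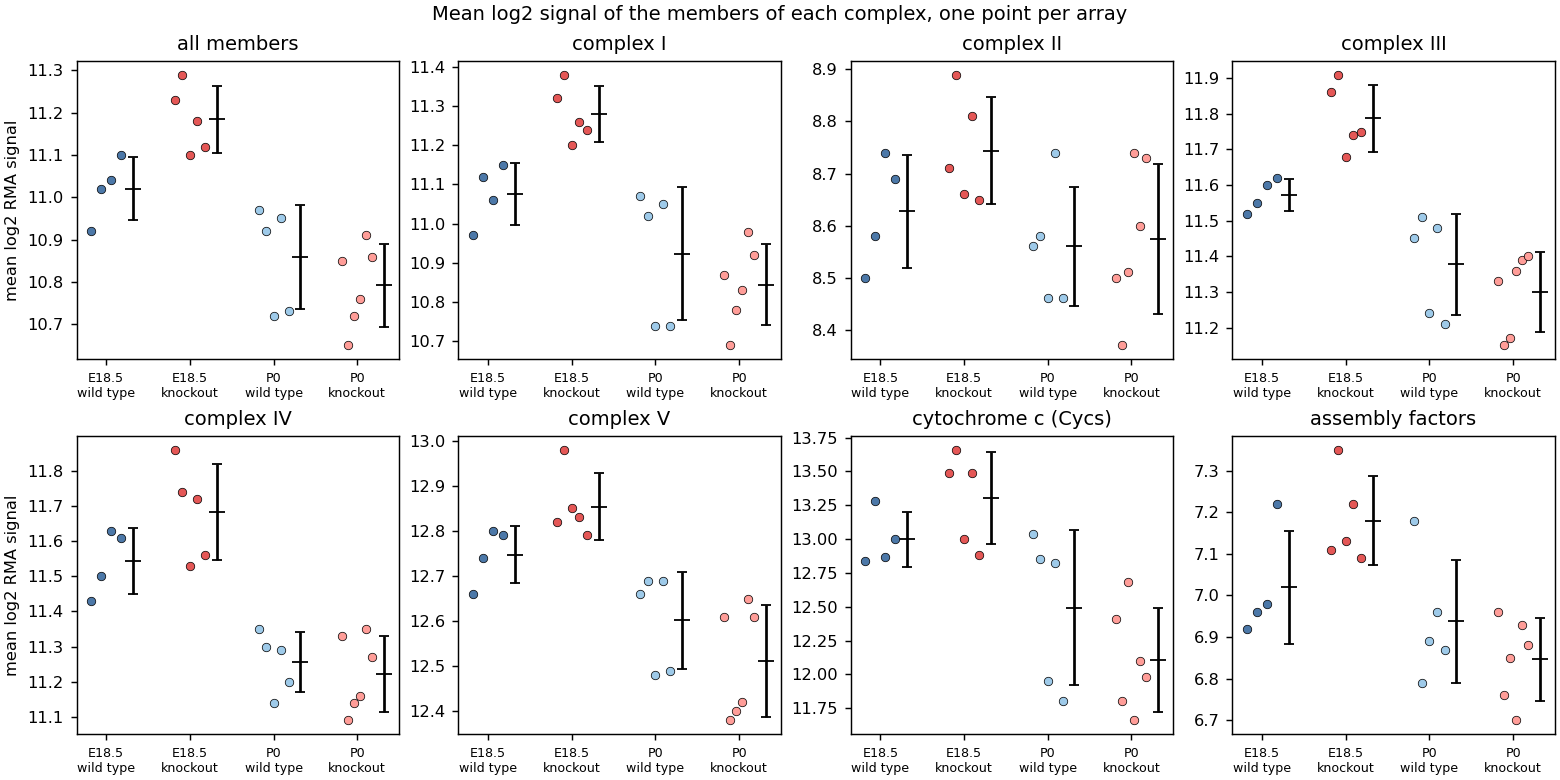
Mean log2 RMA signal of the tested members of each complex (vertical axis, a separate scale per panel), 1 point per array, by age and genotype. Horizontal bars and whiskers give the group mean ± SD over 4, 5, 5 and 6 arrays; the mean of all members was 11.02, 11.18, 10.86 and 10.79 in the order drawn.

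The count in knockouts was lower in fits that left out arrays rich in markers of neighbouring tissue or used marker means as covariates. Of the 5 intestinal markers 3 were called lower at P0 in knockouts, with a median difference of -1.49, while none of the 6 skeletal muscle markers was called. The 5 arrays on which the intestinal or the muscle mean exceeded 7 were 3 of the 5 E18.5 knockouts, 1 E18.5 wild type and 1 P0 knockout. Without them, 4 members were called lower in knockouts (Atp5g1, Cox6a2, Ndufa2 and Ndufb7), the median was -0.26, 88 of the 94 differences lay below 0, and 1.86% of 17636 genes were called lower. With the liver, intestinal and muscle means as covariates, 17 were called lower, 16 of them among the 59, against 5.21% of all genes, and the median was also -0.26. The fit without the 5 arrays kept 2 E18.5 knockout arrays, so that fewer arrays and less intestinal or muscle tissue cannot be told apart in it. Liver markers did not enter that choice. The kept E18.5 knockout arrays, 3 and 5, had liver means of 10.70 and 14.50. Beyond these fits, the part of other tissue in the fall was not tested. Nor was that of the mesenchymal markers that moved with age in knockouts, or of the acinar markers that fell in both genotypes.

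**Figure D2:**
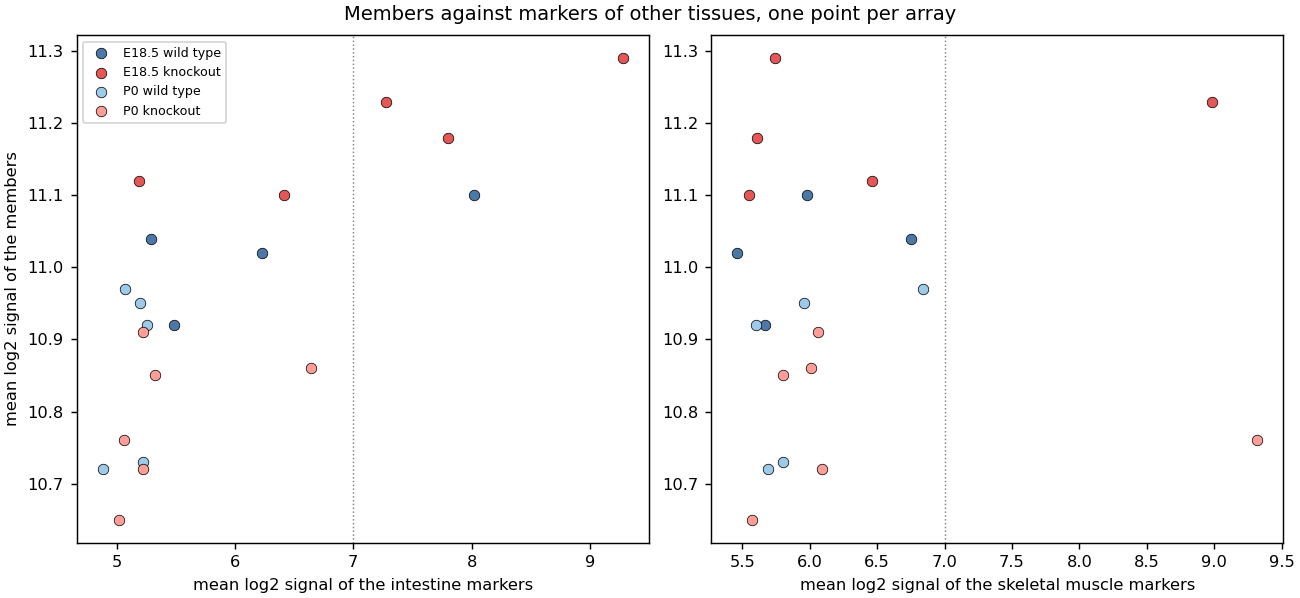
Mean log2 signal of the members (vertical axis) against the mean log2 signal of 5 intestinal (left) or 6 skeletal muscle markers (right), 1 point per array and coloured by group. The dotted line marks a marker mean of 7; the 4 arrays to its right on the left panel are all E18.5, with member means of 11.10 to 11.29.

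Complex I, the NADH dehydrogenase, fell broadly in knockouts. Of its 34 subunits 26 were called lower at P0, with a median of -0.41, and 3 were called lower in wild types, with a median of -0.17. Ndufs8, an iron-sulphur subunit of the core, had the largest difference of all members in knockouts. It read 11.70, 11.67, 11.37, 11.45 and 11.10 in E18.5 knockouts and 9.43 to 10.60 (median 10.23) in P0 knockouts, without overlap. The difference was -1.32 ± 0.20, a 2.5-fold fall (adjusted p = 0.000265). Without the 5 marker-rich arrays it was -1.12 and not called (adjusted p = 0.0739). In wild types Ndufs8 read 10.74, 11.16, 10.98 and 10.91 at E18.5 and 10.55, 10.75, 9.65, 10.59 and 9.92 at P0, a difference of -0.65 ± 0.23 that was not called (adjusted p = 0.0801). Here P0 arrays 3 and 5 were low and array 2 overlapped the lowest E18.5 array.

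Ndufa13 (GRIM-19), an accessory subunit also described as a cell death regulator, fell from a mean of 14.23 to 13.39 in knockouts. Its difference was -0.84 ± 0.14 (adjusted p = 0.000464), and the wild-type difference of -0.42 ± 0.16 was not called (adjusted p = 0.0977). Ndufa9, which helps to join the peripheral arm to the membrane arm, fell by 0.72 ± 0.19 in knockouts (adjusted p = 0.0117), and its wild-type difference was -0.18 ± 0.21 (adjusted p = 0.675). Groups overlapped for Ndufa9 even in knockouts, where E18.5 array 5 read 11.70 and P0 array 4 read 11.76.

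The complex I subunits called in wild types were Ndufv3, Ndufc1 and Ndufab1, and each was also called in knockouts. Ndufv3, an accessory subunit of the NADH-oxidising module, read 10.90, 11.06, 10.70 and 10.39 in E18.5 wild types and 10.56, 10.22, 9.24, 10.09 and 10.01 at P0. The difference was -0.74 ± 0.22 in wild types (adjusted p = 0.0406) and -0.71 ± 0.19 in knockouts (adjusted p = 0.0132). P0 wild-type array 1 lay above the lowest E18.5 array, so these groups overlapped. Ndufc1, a small membrane-arm subunit, differed by -0.40 ± 0.10 in wild types (adjusted p = 0.0229) and -0.40 ± 0.09 in knockouts (adjusted p = 0.00502), with no overlap between the ages in either genotype. Ndufab1, the mitochondrial acyl carrier protein, which also serves fatty acid synthesis, fell by 0.28 ± 0.08 (adjusted p = 0.0354) and 0.43 ± 0.07 (adjusted p = 0.000424), again without overlap.

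Core and accessory subunits of complex I were also counted apart. The 6 conserved core subunits that were measured (Ndufs1, Ndufs3, Ndufs7, Ndufs8, Ndufv1 and Ndufv2) had a median of 0.00 in wild types, with 3 above 0, and of -0.26 in knockouts, with 3 called lower. The 28 accessory subunits had medians of -0.18 and -0.43, with 3 and 23 called lower. Ndufs1, the large iron-sulphur subunit, differed by 0.20 ± 0.11 in wild types (adjusted p = 0.27) and -0.13 ± 0.10 in knockouts (adjusted p = 0.353). Ndufs3 differed by 0.22 ± 0.08 (adjusted p = 0.101) and -0.11 ± 0.07 (adjusted p = 0.301). Neither passed the test, and the contrast of core with accessory subunits itself was not tested.

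Complex II, succinate dehydrogenase, also belongs to the citric acid cycle and is wholly nuclear-encoded. One of its 4 subunits, Sdha, the flavoprotein that oxidises succinate, was called in knockouts, and none in wild types. Sdha read 8.17, 8.47, 8.38, 8.43 and 8.30 in E18.5 knockouts and 7.88 to 8.34 (median 8.05) at P0, with overlap. The fall was 0.27 ± 0.08 (adjusted p = 0.0244), whereas the wild-type difference was 0.09 ± 0.09 (adjusted p = 0.572). The iron-sulphur subunit Sdhb differed by -0.20 ± 0.13 in knockouts and 0.02 ± 0.14 in wild types (adjusted p = 0.274 and 0.948). The membrane anchors Sdhc and Sdhd differed by -0.20 ± 0.11 and -0.01 ± 0.10 in knockouts (adjusted p = 0.199 and 0.957) and by -0.26 ± 0.12 and -0.14 ± 0.11 in wild types (adjusted p = 0.177 and 0.473).

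Complex III, the cytochrome bc1 complex, had 5 of 8 subunits called lower in knockouts (median -0.39) and 2 in wild types (median -0.07). The largest falls were among its small subunits. Uqcr11 read 11.14, 11.12, 11.05 and 10.72 in E18.5 wild types and 10.64, 10.82, 9.71, 10.08 and 10.05 at P0. In knockouts it read 11.33, 11.31, 11.19, 11.10 and 11.05 at E18.5 and 9.75 to 10.68 (median 10.14) at P0. Only the knockout ages were free of overlap. Its fall was 0.75 ± 0.20 in wild types (adjusted p = 0.0256) and 1.03 ± 0.18 in knockouts (adjusted p = 0.000643). Without the 5 marker-rich arrays the knockout difference was -0.92 (adjusted p = 0.0844).

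Uqcr10 fell by 0.46 ± 0.13 in wild types (adjusted p = 0.0413) and 0.70 ± 0.12 in knockouts (adjusted p = 0.000654), with no overlap in either. Uqcrq, which lies next to cytochrome b, fell by 0.84 ± 0.19 in knockouts (adjusted p = 0.00356) and differed by -0.40 ± 0.21 in wild types (adjusted p = 0.25). The core protein Uqcrc1 and the Rieske iron-sulphur protein Uqcrfs1 were not called at either genotype: their knockout differences were -0.22 ± 0.09 (adjusted p = 0.0807) and -0.09 ± 0.10 (adjusted p = 0.546). The other core protein, Uqcrc2, went from a mean of 11.95 at E18.5 to 11.55 at P0 in knockouts, without overlap. In wild types its means were 11.57 and 11.66.

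Cytochrome c (Cycs), the mobile carrier between complexes III and IV and a trigger of apoptosis when released, read 12.88 to 13.66 (median 13.49) in E18.5 knockouts. At P0 the knockouts ran from 11.66 to 12.68 (median 12.04), below every E18.5 knockout. The fall was 1.20 ± 0.23, 2.29-fold (adjusted p = 0.00146). The wild types read 12.84 to 13.28 (median 12.94) at E18.5 and 13.04, 12.85, 11.95, 12.82 and 11.80 at P0, so that P0 arrays 3 and 5 were low and the others overlapped E18.5. Their difference was -0.51 ± 0.26 (adjusted p = 0.244). The probe set on the gene's own chromosome gave a knockout fall of 0.93 (adjusted p = 0.000727). Without the 5 marker-rich arrays the difference was -0.74 (adjusted p = 0.235).

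Complex IV, cytochrome c oxidase, had all 17 tested subunits below 0 in both genotypes, with Cox6c nearest to 0. Of these 12 were called in knockouts (median -0.51) and 1 in wild types (median -0.22). Cox5a, a matrix-side subunit, fell by 0.73 ± 0.14 in knockouts (adjusted p = 0.00141) from a mean of 14.93 to 14.20, and differed by -0.25 ± 0.16 in wild types (adjusted p = 0.343). Ndufa4 fell by 0.64 ± 0.12 in knockouts (adjusted p = 0.00112) and differed by -0.22 ± 0.13 in wild types (adjusted p = 0.344). Cox4i1, the common form of the largest nuclear subunit, moved least among the called subunits of the complex: its fall in knockouts was 0.18 ± 0.06 (adjusted p = 0.0404), and the wild-type difference was -0.01 ± 0.07 (adjusted p = 0.937).

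Several subunits of complex IV have a common isoform and another that is restricted in tissue or condition. The common forms Cox6a1, Cox6b1, Cox7a2 and Cox8a fell in knockouts by 0.53 ± 0.12, 0.51 ± 0.13, 0.51 ± 0.12 and 0.23 ± 0.07 (adjusted p = 0.00383, 0.00825, 0.00656 and 0.0296), and none was called in wild types. Cox4i2, the lung and hypoxia form, fell by 0.42 ± 0.15 in knockouts (adjusted p = 0.0493) and Cox6b2, the testis form, by 0.52 ± 0.14 (adjusted p = 0.0149). Their wild-type differences were -0.20 ± 0.17 and -0.50 ± 0.16 (adjusted p = 0.484 and 0.0569).

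Cox7a1 and Cox6a2 are the heart and muscle isoforms. Cox7a1 ranged over 3.0 log2 units across the 20 arrays, the widest of all members. It read 8.68, 8.33, 7.60, 9.27 and 7.85 in E18.5 knockouts and 6.27 to 7.36 (median 7.25) at P0, a fall of 1.24 ± 0.31 (adjusted p = 0.00796). Its highest value, 9.27, was on E18.5 knockout array 4, where the muscle mean was 5.61 and the intestinal mean 7.80. Without the 5 arrays named above the difference was -0.68 (adjusted p = 0.306). Cox6a2 was highest on the muscle-rich arrays, at 6.67 on E18.5 knockout array 1 and 6.04 on P0 knockout array 4. Its difference of -0.66 ± 0.27 was not called (adjusted p = 0.0839). Unlike Cox7a1, Cox6a2 was called lower without those 5 arrays, and also with the marker means as covariates.

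Ndufa4l2, a paralogue of Ndufa4 that hypoxia-inducible factor turns on, was the only complex IV member called in wild types. It read 6.98, 7.05, 7.46 and 5.79 at E18.5 and 5.76, 5.67, 5.67, 5.21 and 5.71 at P0. Every P0 array lay below every E18.5 array, narrowly for E18.5 array 4. The fall was 1.22 ± 0.34, 2.32-fold (adjusted p = 0.0326). In knockouts the groups overlapped. The E18.5 arrays read 7.36, 6.81, 6.41, 6.26 and 6.20, the P0 arrays ran between 5.09 and 6.67 (median 5.90), and the difference was -0.79 ± 0.31 (adjusted p = 0.0705).

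Complex V had 10 of 16 subunits called lower in knockouts (median -0.35) and 1 in wild types (median -0.11). The called wild-type member was Atp5g1, which also had the smallest adjusted p of the set in both age comparisons. Atp5g1 encodes subunit c, which forms the rotating ring. It read 8.62, 8.93, 8.90 and 8.46 in E18.5 wild types and 8.01, 8.38, 7.71, 8.27 and 7.50 at P0, a fall of 0.75 ± 0.16 or 1.69-fold (adjusted p = 0.00781). In knockouts it read 8.83, 9.15, 8.93, 8.69 and 8.73 at E18.5 and 7.41 to 7.81 (median 7.64) at P0, a fall of 1.24 ± 0.14 or 2.36-fold (adjusted p = 2.9e-05). No arrays overlapped in either genotype. Without the 5 marker-rich arrays the knockout difference was -1.16 (adjusted p = 0.016).

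The same subunit c protein is made from Atp5g2 and Atp5g3, which differ in the import sequence that is cut off. Atp5g3 fell by 0.35 ± 0.12 in knockouts (adjusted p = 0.0368) and differed by 0.05 ± 0.13 in wild types (adjusted p = 0.878). Atp5g2 differed by -0.25 ± 0.20 and -0.36 ± 0.23 (adjusted p = 0.43 and 0.344). These Atp5g2 values came from a probe set on another chromosome than the gene. Of the catalytic head, Atp5b (beta) fell by 0.35 ± 0.10 in knockouts (adjusted p = 0.014), while Atp5a1 (alpha) differed by -0.20 ± 0.11 (adjusted p = 0.218). Atp5d (delta, in the central stalk) fell by 0.52 ± 0.13 and Atp5o (the oligomycin-sensitivity protein of the peripheral stalk) by 0.43 ± 0.08 in knockouts (adjusted p = 0.00579 and 0.00146). Neither was called in wild types, with differences of -0.24 ± 0.14 and -0.12 ± 0.09 (adjusted p = 0.31 and 0.46).

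**Figure D3:**
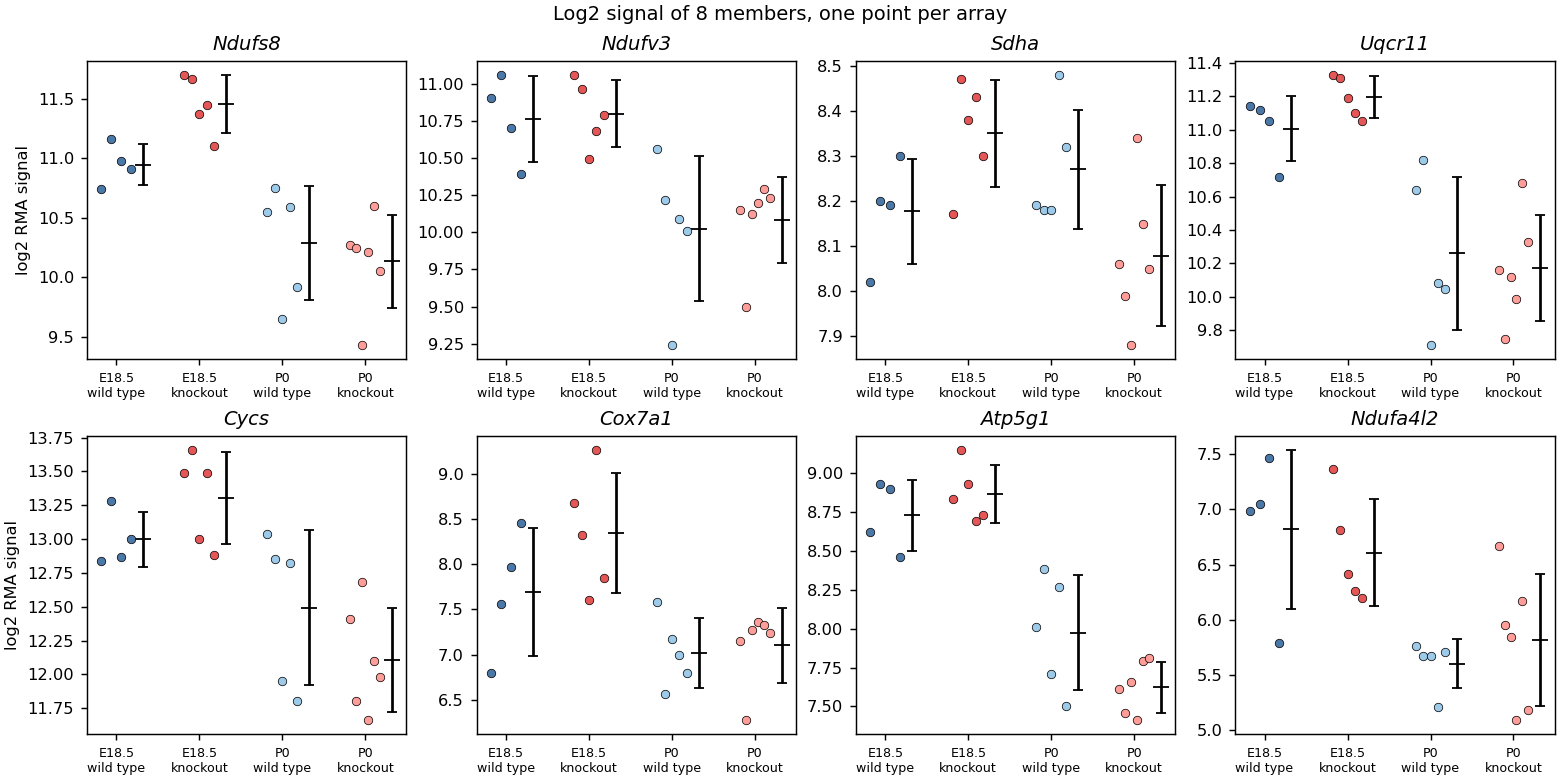
Log2 RMA signal of 8 members (vertical axis, a separate scale per panel), 1 point per array, by age and genotype, with group mean ± SD beside the points. Atp5g1 separates the ages without overlap in both genotypes, and in Ndufs8, Uqcr11 and Cycs P0 wild-type arrays 3 and 5 are the lowest of their group.

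Assembly factors help to build the complexes and are not part of them. Of the 9 tested, 3 were called lower in knockouts (median -0.31) and 1 in wild types (median -0.11). Ndufaf2 was called in both, with falls of 0.65 ± 0.11 (adjusted p = 0.000435) and 0.43 ± 0.12 (adjusted p = 0.0304). Ndufaf5, which hydroxylates Ndufs7, fell by 0.81 ± 0.14 in knockouts (adjusted p = 0.000766) and differed by -0.50 ± 0.16 in wild types (adjusted p = 0.0587). Ndufaf3 fell by 0.44 ± 0.11 in knockouts (adjusted p = 0.00645). Of the 5 further names caught by the rule, Atp5l2 was called lower in knockouts. Cox7a2l and Atp5sl were among the 4 members above 0 in knockouts, with differences of 0.23 and 0.19, neither called.

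In all, 7 members were called lower in both genotypes: Atp5g1, Ndufab1, Ndufaf2, Ndufc1, Ndufv3, Uqcr10 and Uqcr11. Ndufa4l2 was called in wild types alone and 52 members in knockouts alone, but a call in one genotype and not in the other does not show a difference. That difference was tested as the change with age in knockouts minus the change in wild types.

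**Figure D4:**
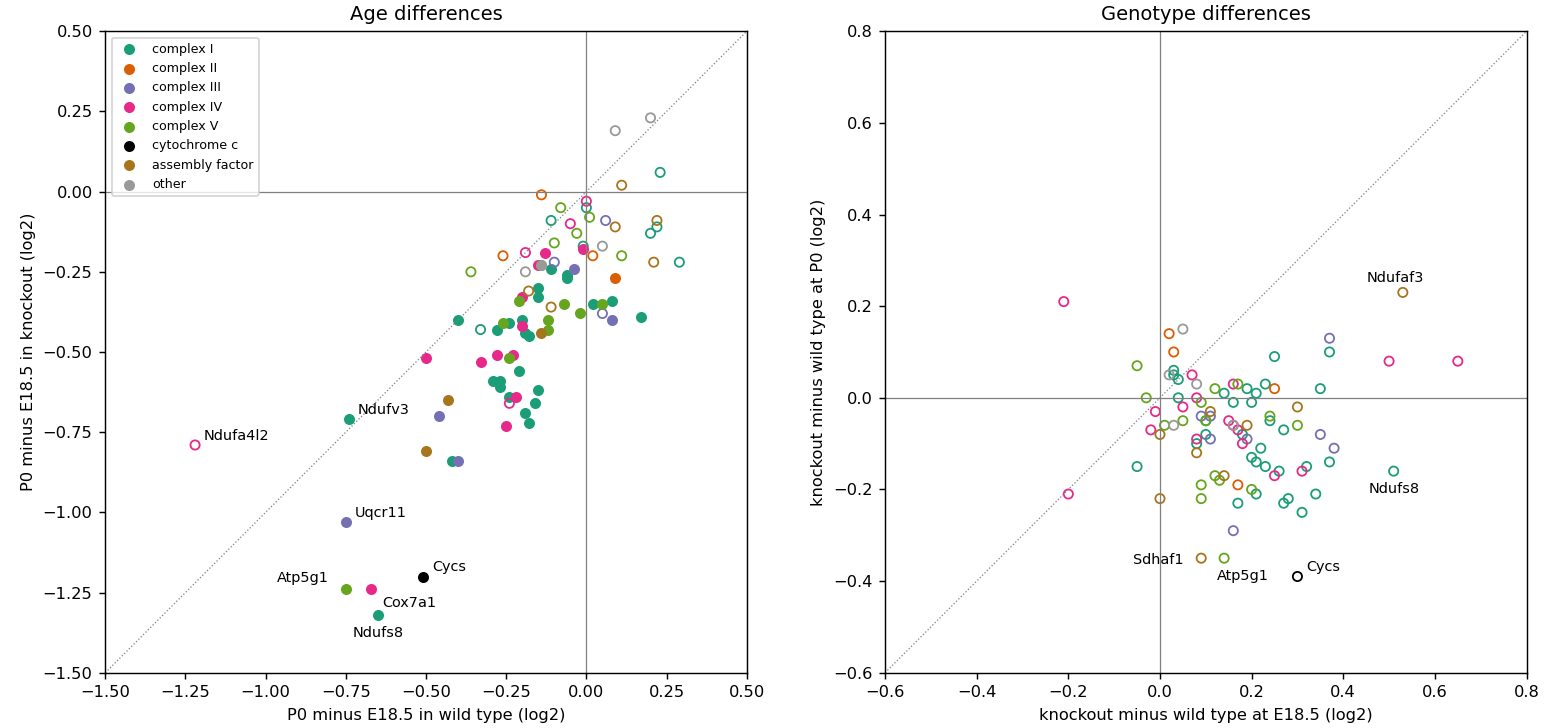
Left, log2 difference P0 minus E18.5 in wild types (horizontal) and knockouts (vertical) for the 94 members, coloured by complex; filled points were called in knockouts, and the dotted line marks equal differences. Right, log2 difference knockout minus wild type at E18.5 (horizontal) and P0 (vertical), where none was called; most points lie right of 0 (86 of 94) and below 0 (68 of 94).

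No member, and none of all genes (0%), was called for that difference. By limma without adjustment 17 members had p under 0.05, all of them below 0. Over all genes 507 were higher (2.82%) and 749 lower (4.16%) at that p. Among the 3885 other genes of like signal, 95 were higher and 240 lower. Every alternative that was run also called 0 members. A value below 0 need not be a larger fall in knockouts: for Ndufs3 and Sdha the wild-type difference with age lay above 0. Of the 5 E18.5 knockout arrays that enter this comparison, 3 were marker-rich. Of the 9 liver markers 8 lay above 0 in it, with a median of 3.32 and none called. The difference lay below 0 for 85 members, with a median of -0.22. The smallest p-values belonged to Ndufs3 (-0.33 ± 0.11), Sdha (-0.37 ± 0.12), Uqcrc2 (-0.49 ± 0.16) and Ndufb3 (-0.47 ± 0.16), with adjusted p of 0.592, 0.598, 0.603 and 0.622. Above 0 the smallest p-values were those of Ndufa4l2 (0.43 ± 0.46), Atp5sl (0.10 ± 0.11), Sdhd (0.13 ± 0.15) and Sdhc (0.07 ± 0.16).

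At E18.5 the knockouts read slightly above the wild types. The difference was above 0 for 86 of the 94 members, with a median of 0.16 against 0.02 over all genes, but none was called, where 0.0111% of all genes were called in either direction (2 genes, Elapor1 and Man1a2, a Golgi mannosidase). By limma without adjustment 13 of the 94 members had p under 0.05, all higher, where 3.90% of all genes were higher and 1.55% lower. Of the 3885 other genes of like signal, 229 were higher and 35 lower at that p. Every alternative called 0 members. The knockout arrays lay wholly above the wild types for 8 members, where 1.74% of all genes showed this: Atp5mpl, Atp5o, Ndufa6, Ndufaf3, Ndufb3, Ndufb9, Ndufs6 and Uqcr10. By complex the median was 0.21 for I, 0.10 for II, 0.17 for III, 0.15 for IV and 0.11 for V.

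The member nearest to a call at E18.5 was Ndufaf3, an early complex I assembly factor. It read 7.55, 7.53, 7.47 and 7.68 in wild types and 8.24, 8.09, 8.08, 8.28 and 7.74 in knockouts, higher in every knockout. The difference was 0.53 ± 0.12 (adjusted p = 0.491). It was followed by Ndufb5 (0.21 ± 0.06), Ndufa6 (0.37 ± 0.11) and Ndufab1 (0.25 ± 0.08), with adjusted p of 0.733, 0.738 and 0.754. Downward, the 4 smallest p-values were those of Cox8c (-0.20 ± 0.13), Ndufa4l2 (-0.21 ± 0.34), Atp5j2 and Cox7c (-0.03 and -0.02). The 3 E18.5 knockouts and 1 E18.5 wild type with high intestinal markers had the highest member means of their groups, 11.18 to 11.29 and 11.10. Without the 5 marker-rich arrays the median difference was 0.10, with 79 members above 0.

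At P0 most differences lay on the other side of 0. The difference was below 0 for 68 members, with a median of -0.06 against 0.01 over all genes, and none was called, where 0.0111% of all genes were (the same 2). By limma without adjustment 1 of the 94 members was higher and 4 were lower at p under 0.05, where 5.04% of all genes were higher and 3.72% lower, a share of lower genes near that of the members. Every alternative called 0 members. No member had groups without overlap. All 9 liver markers were higher in P0 knockouts than in P0 wild types, with a median of 1.95 and none called. Beyond the fit with marker means as covariates, the part of liver tissue here was not tested. Ndufaf3 was again the furthest upward by p, at 0.23 ± 0.11 (adjusted p = 0.569), followed by Atp5sl (0.15 ± 0.08), Sdhd (0.14 ± 0.10) and Ndufab1 (0.09 ± 0.07). Downward they were Atp5g1 (-0.35 ± 0.14, adjusted p = 0.542), Sdha (-0.19 ± 0.08), Sdhaf1 (-0.35 ± 0.15) and Atp5o (-0.18 ± 0.08). Each age comparison and each genotype comparison share groups of arrays, so these values are not independent of those above.

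Many of these genes have promoters that nuclear respiratory factor 1 (NRF1), ETS factors such as GA-binding protein, or YY1 are known to bind. Promoters were taken from RefSeq on GRCm38.p6, from 250 bases before to 50 after the start, for the 77 of 96 members found there. The letters searched, on both strands, were GCGCANGCGC for NRF1, CCGGAAG for the ETS family and AAGATGGCG for YY1. They occurred in 20.8%, 26% and 10.4% of the members, against 5.19%, 9.93% and 1.64% of all 27025 genes in the table. At least one was present in 38 of 77 members, or 49.4%, against 15.1% of all genes. Among members called lower with age in knockouts it was 22 of 51, and among the other members 16 of 26.

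For each complex, the promoter shown is that of the member called lower in knockouts with the most such matches before its start, the larger fall deciding ties. Each line gives the 250 bases before the start, 5′ to 3′ on the gene's minus strand, with matches to any of these letters in capitals. Sdha holds 3 NRF1 matches, Cox6a1 holds 2 and an ETS match, Atp5h holds 1 of each, Ndufs6 has an NRF1 match and Uqcr11 an ETS match. The knockout differences with age were -0.64 for Ndufs6, -0.27 for Sdha, -1.03 for Uqcr11, -0.53 for Cox6a1 and -0.34 for Atp5h. A match is a description of the letters, not evidence of binding.
Ndufs6 (complex I; chr13:73328483-73328732): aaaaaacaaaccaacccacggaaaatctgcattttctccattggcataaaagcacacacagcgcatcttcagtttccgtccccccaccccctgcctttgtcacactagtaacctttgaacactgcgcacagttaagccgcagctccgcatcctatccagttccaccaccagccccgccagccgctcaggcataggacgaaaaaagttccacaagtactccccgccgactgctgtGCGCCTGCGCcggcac
Sdha (complex II; chr13:74350241-74350490): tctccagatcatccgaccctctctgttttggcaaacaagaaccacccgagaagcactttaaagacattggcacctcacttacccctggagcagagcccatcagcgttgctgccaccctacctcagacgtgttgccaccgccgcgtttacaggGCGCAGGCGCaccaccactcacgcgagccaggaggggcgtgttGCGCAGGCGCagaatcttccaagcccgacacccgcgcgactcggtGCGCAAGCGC
Uqcr11 (complex III; chr10:80406822-80407071): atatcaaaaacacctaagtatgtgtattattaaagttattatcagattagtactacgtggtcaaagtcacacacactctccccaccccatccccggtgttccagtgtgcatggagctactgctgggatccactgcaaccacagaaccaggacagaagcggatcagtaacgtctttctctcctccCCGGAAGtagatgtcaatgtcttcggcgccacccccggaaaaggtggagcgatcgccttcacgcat
Cox6a1 (complex IV; chr5:115348959-115349208): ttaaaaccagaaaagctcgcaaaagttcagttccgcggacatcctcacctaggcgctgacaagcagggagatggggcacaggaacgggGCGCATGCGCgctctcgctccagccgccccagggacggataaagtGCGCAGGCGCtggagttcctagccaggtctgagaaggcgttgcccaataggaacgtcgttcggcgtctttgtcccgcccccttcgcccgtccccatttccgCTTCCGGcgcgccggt
Atp5h (complex V; chr11:115419920-115420169): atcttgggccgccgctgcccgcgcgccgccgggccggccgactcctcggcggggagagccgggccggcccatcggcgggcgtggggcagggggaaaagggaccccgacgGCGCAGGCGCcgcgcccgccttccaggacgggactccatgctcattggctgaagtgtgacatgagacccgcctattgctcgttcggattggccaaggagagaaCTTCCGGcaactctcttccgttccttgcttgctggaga

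Genes around the chain were counted in the same way. Of 12 citric acid cycle genes 6 fell in knockouts (median -0.31) and none was called in wild types (median -0.06). They included Suclg1 (-0.84 ± 0.15, adjusted p = 0.000761), Cs, citrate synthase (-0.51 ± 0.13, adjusted p = 0.01), and Mdh2, malate dehydrogenase (-0.49 ± 0.15, adjusted p = 0.0239). Of 22 assembly factors outside the naming rule 5 fell in knockouts and 1 in wild types. Over all tested genes 11.7% fell in knockouts and 4.10% in wild types, so the wild-type count of these assembly factors was near that share. Timmdc1, for complex I, fell in both, by 0.50 ± 0.10 and 0.54 ± 0.11 (adjusted p = 0.00127 and 0.0057). Bcs1l, which inserts the Rieske protein, fell by 0.45 ± 0.10 in knockouts (adjusted p = 0.00384), and Cox17, a copper chaperone, by 0.44 ± 0.13 (adjusted p = 0.0214).

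Of 16 carrier and import genes 5 fell and 1 rose in knockouts, and 1 rose in wild types. Over all tested genes 11.7% fell and 11.3% rose in knockouts. In wild types 4.76% rose, a share near that of these genes. Hspd1, the matrix chaperonin, fell by 0.65 ± 0.13 (adjusted p = 0.002), the ADP/ATP carrier Slc25a5 by 0.53 ± 0.12 (adjusted p = 0.00336) and the import receptor Tomm22 by 0.49 ± 0.11 (adjusted p = 0.00488). The phosphate carrier Slc25a3 rose in wild types by 0.31 ± 0.09 (adjusted p = 0.0332). For Slc25a5 the change with age differed between genotypes by -0.82 ± 0.18, which was not called (adjusted p = 0.261, shared by 49 genes as the smallest).

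Among 12 regulators of mitochondrial biogenesis, Ppargc1a, the coactivator that drives respiratory chain genes in other tissues, rose in knockouts by 1.22 ± 0.36 (adjusted p = 0.0194) while the chain members fell. Its wild-type difference was 0.40 ± 0.39 (adjusted p = 0.583). Pprc1, a related coactivator, fell by 0.63 ± 0.11 in wild types and 0.62 ± 0.10 in knockouts (adjusted p = 0.00374 and 0.000498). Tfb1m, a mitochondrial rRNA methyltransferase, fell by 0.60 ± 0.17 in knockouts (adjusted p = 0.0164) and differed by -0.61 ± 0.19 in wild types (adjusted p = 0.0514).

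The list of chain genes outside the naming rule had 7 tested members. Cyc1, cytochrome c1 of complex III, fell by 0.87 ± 0.17 in knockouts (adjusted p = 0.00143) and Atpif1, the ATPase inhibitor, by 0.34 ± 0.08 (adjusted p = 0.00481). The mitochondrially encoded ND2 of complex I rose. It read 14.08, 13.43, 14.17 and 15.43 in E18.5 wild types and 16.21, 15.43, 15.51, 15.93 and 15.43 at P0, and 14.09, 13.73, 15.18, 14.71 and 14.77 in E18.5 knockouts and 15.43 to 17.5 (median 16.03) at P0. In knockouts the ages did not overlap. The rise was 1.42 ± 0.43 in wild types (adjusted p = 0.0446) and 1.72 ± 0.38 in knockouts (adjusted p = 0.0038). The value 15.43 recurred for ND2 on E18.5 wild-type array 4, P0 wild-type arrays 2 and 5 and P0 knockout array 5. COX1, ND3 and ND6 sat at the ceiling of the scale on every array, so that no change in them could be seen. The mitochondrially encoded COX2 read 10.62 on every array except E18.5 knockout array 4 (10.32). The rise was therefore seen in ND2 alone among the mitochondrially encoded genes tested.

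The members varied in spread. Their range over the 20 arrays had a median of 0.90 and was under 0.50 for 9 members, among them Cox6c (0.21), Atp5j2 (0.28) and Atp5j (0.29). Exactly the same value recurred on 3 or more arrays for 19 members, against 4.30% of all genes, and for Cox6c on 16 arrays at 8.0. None of the members was at the ceiling. Among members with a mean signal under 9, from 9 to 13, and of 13 and over, 14 of 32, 27 of 35 and 18 of 27 were called lower in knockouts, with medians of -0.29, -0.40 and -0.35.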

How the data were processed

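RNA of whole pancreas was isolated (RNeasy Lipid Tissue Kit) and amplified and labelled with Ovation PicoSL WTA and Encore Biotin reagents, per the labels. The authors deposited log2 signals for 65956 probe sets, from RMA; the submitters' processing notes name Affymetrix Expression Console, version 1.4.1.46, and the genome build is not given in the sources used here. Those log2 values entered without renormalisation. In the annotation, 30604 probe sets named 1 symbol, 2146 several and 33206 none; the highest-mean single-symbol probe set represented a gene. limma (3.58.1, R 4.3.3) estimated the 4 group means from 20 arrays jointly, leaving 16 residual (17.9 moderated) degrees of freedom; the code was tested on simulated data.

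Members and lists were chosen with earlier results of these data known. Named genes were, per complex, up to 3 called members with the largest rise and fall in each age comparison; the 4 smallest p-values in each direction where a genotype comparison called none; isoform pairs, subunit c and Sdh genes and Cycs; and up to 3 called genes of each related list. Others (Uqcrc1, Uqcrfs1, Ndufs1, Atp5a1, Atp5b, Atp5h, Atp5j, Cox6c, Man1a2) were named after their values were seen. Array number limits the precision. Deviations of same-numbered arrays correlated at -0.031 to 0.245, so numbers were not taken as pairs. Alternatives covered filter, threshold, choice of members, normalisation, weights, replicate block, probe set choice, marker covariates and each array left out.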

Additional observations from a re-analysis of the deposited data

Results flagged for a closer look

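In 12 of 204 groups of values, 1 array lay far from the others by Dixon's criterion. Chance alone meets this criterion in about 1 in 20 groups. The values were those of a named member, or the mean of all members, of a complex or of the assembly factors, in a group of 4 to 6 arrays. All 12 were named members. At E18.5 in knockouts, array 2 was high for Atp5d (8.87, others 8.66 to 8.71) and for Cox6b1 (16.89, others 16.42 to 16.51), and array 3 was low for Ndufa6 (11.44, others 11.67 to 11.76). Array 2 had the highest mean of the intestinal markers, 9.28. In E18.5 wild types, array 4, the wild-type array with the highest intestinal mean (8.02), was high for Cox7c (10.34, others 10.16) and Ndufa4 (17.62, others 17.35 to 17.36). Over the 20 arrays a value of 10.16 recurred exactly on 5 for Cox7c, and one of 17.36 on 5 for Ndufa4. Such repeats narrow the spread of the other arrays.

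At P0 in knockouts, array 4 was high for Cox6a2 (6.04, others 4.71 to 5.20) and Atp5sl (5.71, others 5.20 to 5.38). This array had the highest skeletal muscle mean of all, 9.32. Array 2 of the same group was low for Cox7a1 (6.27, others 7.15 to 7.36) and Ndufv3 (9.50, others 10.12 to 10.29). In P0 wild types Cox8c was high on array 2 (5.18, others 4.92 to 4.96), Ndufa4l2 was low on array 4 (5.21, others 5.67 to 5.76) and Ndufc1 was low on array 5 (6.10, others 6.44 to 6.55).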

How the results depend on the processing

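In both genotype comparisons and in the difference between them, 0 members were called under every alternative. The 59 members called with age in knockouts fell to 17 with marker means as covariates and to 4 without the 5 marker-rich arrays, an alternative chosen after seeing the data, as was the probe set on the gene's own chromosome. Under the other alternatives the count was 45 to 66. These include a looser threshold, an adjusted p under 0.1, and a count of the subunits and Cycs alone. With single arrays left out it was 45 to 58. The median difference of all 94 members in knockouts, -0.353, moved to -0.256 with the covariates. The 8 members called in wild types fell to 5 with no signal filter, to 5 centred on array medians, to 2 with the covariates, to 4 without the marker-rich arrays and to 0 when the fit used the arrays of the contrast alone. Leaving out single arrays gave 1 to 9: 1 without E18.5 wild-type array 1 or 2, 2 without P0 wild-type array 3, 3 without E18.5 array 3 or P0 array 5, and 5 without array 4 of either age. The cause was not tested.

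Same-numbered arrays share only a number. With it as a replicate block, 5 members were called in wild types and 54 in knockouts, and 0 in the other comparisons.

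Of 1609 alternative values for 49 results on named members, 1504 kept direction and side of the threshold, 99 lost the call and 6 reversed, all of them uncalled. The 49 include results that were not called, which count as kept when they stay uncalled. All 99 losses therefore fall on the called results, whose share of kept values is lower than in the pool. At E18.5, the knockout difference of Cox7c became 0.04 without the marker-rich arrays and ran from -0.05 to 0.02 over single arrays left out, and that of Ndufa4l2 ran from -0.56 to 0.0. The genotype difference in the change with age became -0.01 for Atp5sl without the marker-rich arrays and ran from -0.02 to 0.13 for Sdhc over single arrays left out. Signals that repeat exactly on several arrays limit what Cox6c and other members with such repeats could show. They occur among bright members such as Atp5l (18.9 on 7 arrays) and lower in the range, as for Ndufa7 (8.97 on 5 arrays).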
